A study of Mus musculus with 6 samples.

Results

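The genes described here are the 7 subunits of respiratory complex I that are encoded by the mitochondrial genome, mt-Nd1, mt-Nd2, mt-Nd3, mt-Nd4, mt-Nd4l, mt-Nd5 and mt-Nd6. They were taken by name from a table of 11955 mouse genes, in which all 7 had a row. The group as a whole was chosen by its levels in Eldr cKI against control, the comparison that the table was made for, so the differences between those groups are given as a description. The study sequenced RNA of mouse samples that are labelled as chondrocytes, with 3 libraries whose genotype is given as control and 3 labelled Eldr cKI, after the long noncoding RNA Eldr. The labels do not spell out cKI, and the promoter, age and further alleles of the mice are not given in the sources used here, nor is it said whether the samples of a group came from separate animals. Levels are in FPKM, which is the number of fragments divided by transcript length and by the mapped total of the library.

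Complex I takes electrons from NADH, passes them to ubiquinone and pumps protons across the inner mitochondrial membrane. All of its mitochondrially encoded subunits lie in the membrane arm, while the rest of the enzyme is made from nuclear genes and imported. The mitochondrial genome is transcribed from both strands into long precursors that are cut at the tRNAs lying between the genes. All the members but mt-Nd6 are read from the same strand, together with the genes for the subunits of complexes III, IV and V. In human cells the message of ND6 is known to lack the poly(A) tail that the other messages carry.

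The sequences below show where members touch each other, since fragments from such ends can belong to either gene. They come from the GENCODE M21 transcripts on the mouse build GRCm38, 5′ to 3′ in the sense of each gene. In that annotation all 7 genes have the position and strand that the deposited table gives them. The mt-Nd4l gene (ENSMUSG00000065947.3, chromosome M, 9877 to 10173, plus strand, 297 bases) runs into mt-Nd4 (ENSMUSG00000064363.1, 10167 to 11544, plus strand, 1378 bases), and both are carried on the same message. The 7 shared bases, in capitals, hold the start codon of mt-Nd4 and the stop codon of mt-Nd4l.
mt-Nd4l, last 30 bases: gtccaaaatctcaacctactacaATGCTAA
mt-Nd4, opening 30 bases: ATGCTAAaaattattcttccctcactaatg
The mt-Nd5 gene (ENSMUSG00000064367.1, 11742 to 13565, plus strand, 1824 bases) and mt-Nd6 (ENSMUSG00000064368.1, 13552 to 14070, minus strand, 519 bases) meet tail to tail on opposite strands. They share 14 bases, in capitals, each the reverse complement of the other.
mt-Nd5, last 30 bases: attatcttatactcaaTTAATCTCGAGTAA
mt-Nd6, last 30 bases: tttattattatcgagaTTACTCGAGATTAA
The labels' protocols name a stranded library kit and also another kit, and do not say whether strand was used in counting. Reads of mt-Nd6 and reads from the strand opposite it therefore cannot be told apart here.

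The remaining members stand apart from each other between tRNA genes: mt-Nd1 (ENSMUSG00000064341.1, 2751 to 3707, 957 bases), mt-Nd2 (ENSMUSG00000064345.1, 3914 to 4951, 1038 bases) and mt-Nd3 (ENSMUSG00000064360.1, 9459 to 9806, 348 bases), all on the plus strand. Each member is annotated as a single exon. The start codons differ, with ATG in mt-Nd4, mt-Nd4l and mt-Nd6, GTG in mt-Nd1, ATA in mt-Nd2, ATT in mt-Nd3 and ATC in mt-Nd5. The annotated mt-Nd4 ends on a lone T, which is completed to a stop codon by the poly(A) tail. Its last 30 bases, with that T in capitals, follow.
mt-Nd4, last 30 bases: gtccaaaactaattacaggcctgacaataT
Base composition sets mt-Nd6 apart from the other 12 mitochondrially encoded genes. Its sense strand held 43.7% T, 28.1% G and 5.97% C, whereas the others held 27.4% to 32.8% T, 5.88% to 16.1% G and 22.1% to 29.97% C. The opening 60 bases of mt-Nd5 and mt-Nd6 show this contrast, with the start codons in capitals.
mt-Nd5, opening 60 bases: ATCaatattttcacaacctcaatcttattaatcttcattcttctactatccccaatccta
mt-Nd6, opening 60 bases: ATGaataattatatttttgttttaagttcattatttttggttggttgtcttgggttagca

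Several facts of the libraries bear on every value below. Fragment numbers estimated from the steps between low FPKM values were between 64167 and 239144 per library. They are rough, since 25.5% to 38.6% of low values came within 0.05 of a multiple of the step. Values are given below in the order of replicates 1, 2 and 3 of each group. The 13 mitochondrially encoded genes made up 29.1%, 50.9% and 68.3% of the FPKM of control libraries against 8.51%, 43.9% and 31.1% for Eldr cKI libraries. In Eldr cKI replicate 1, genes with predicted names (Gm followed by digits) made up 67.3% of the FPKM (4.97% to 17.9% elsewhere), and 4420 genes were above 0, the lowest number of any library. Of 16 chondrocyte markers 7 had a row, and they summed to 1.25 to 12.7 FPKM per library. Col2a1, the collagen of cartilage, was above 0 in control replicates 1 and 2 only, at 0.956 and 4.52 FPKM. The cardiomyocyte markers, of which 11 of 12 had a row and all 11 were above 0 in every library, summed to 1122 to 2496 FPKM in control libraries against 1686 to 5238 in Eldr cKI. The hepatocyte markers summed to 7222 FPKM in control replicate 3, with all 10 measured genes above 0, and to 62.8 to 495 FPKM in the other libraries. The 10 photoreceptor markers summed to 1278 and 1866 FPKM in control replicates 1 and 2 and to at most 9.90 FPKM elsewhere. The part of these other tissues' RNA in the levels of the members was not tested.

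All 7 members were detected in every library, and all 7 had a lower mean log level in Eldr cKI than in control. For each of them the values of the groups overlapped. Eldr cKI replicate 1 was the lowest library for all 7 members. Control replicate 3 was the highest for 6 of them, the exception being mt-Nd3, where control replicate 2 was the highest. The same pair of libraries bounded most of the other mitochondrially encoded genes as well. Over all 13, Eldr cKI replicate 1 was lowest for 12 and control replicate 3 highest for 11. The FPKM of all genes summed to 430062 in control replicate 3 against 188859 to 239593 in the other libraries. As a share of all FPKM, control replicate 3 was highest only for mt-Nd2, mt-Nd4 and mt-Nd6 among the members. Eldr cKI replicate 2 was highest for mt-Nd1 and mt-Nd4l, and control replicate 2 for mt-Nd3 and mt-Nd5. On that scale Eldr cKI replicate 1 was lowest for all members but mt-Nd6. Summed over the members, the level was 50053, 79969.6 and 228769 FPKM in control libraries against 12043, 63478 and 38792 FPKM in Eldr cKI. The sum of Eldr cKI replicate 2 therefore lay above that of control replicate 1. Without mt-Nd6 the sum was 22201, 37065 and 73667 FPKM in control libraries against 3879, 34922 and 29300 FPKM in Eldr cKI. On that count Eldr cKI replicates 2 and 3 both lay above control replicate 1. Whether fewer mitochondria-rich cells or less mitochondrial RNA per cell lies behind a lower level cannot be told apart in bulk RNA. The size of the difference also depended on scaling. The median log2 fold change of the members (Eldr cKI over control) was -1.23, and -0.39 with predicted names left out and the libraries rescaled. With the libraries rescaled to the nuclear genes without predicted names it was -0.93.

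**Figure D1:**
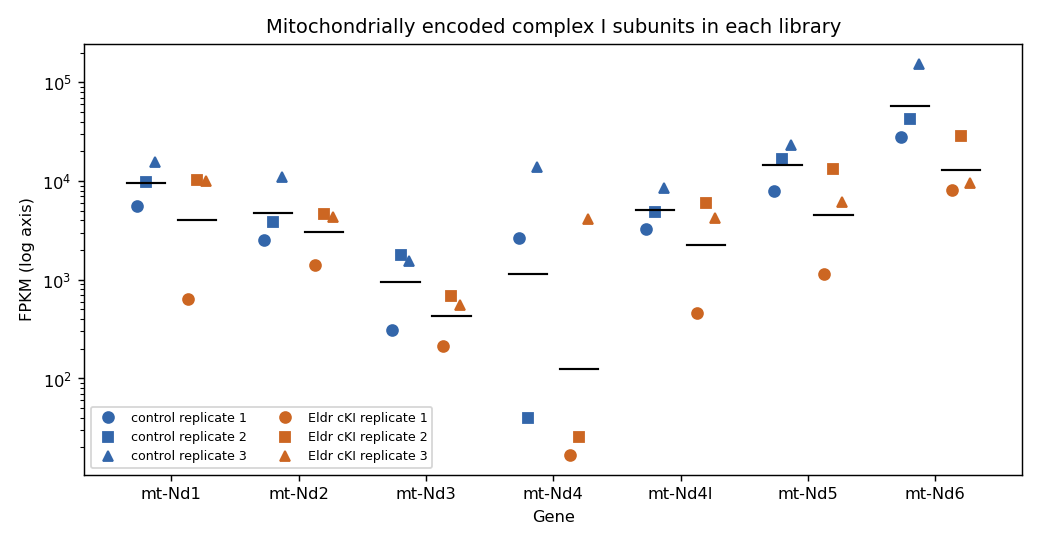
FPKM of each member (log axis) in the 3 control libraries (blue) and the 3 Eldr cKI libraries (orange), with replicate numbers shown by the marker shape and the mean of the log2 values of each group as a black bar. Eldr cKI replicate 1 is the lowest point for all 7 genes, and mt-Nd4 spreads furthest, from 16.7 to 13775 FPKM.

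The subunits that resemble proton antiporters are mt-Nd2, mt-Nd4 and mt-Nd5, which form the pumping modules of the membrane arm. The level of mt-Nd5 was 7851, 16740.5 and 23330.2 FPKM in control libraries against 1146, 13342 and 6097 FPKM in Eldr cKI. The highest Eldr cKI value exceeded the lowest control. Its group means were 15974 ± 7768 and 6861 ± 6134 FPKM (SD, n = 3 each), and its log2 fold change was -1.68, with a standard error from its own libraries of 1.14. All fold changes are Eldr cKI over control, on the scale of log2(FPKM + 1). The level of mt-Nd2 was 2535, 3887 and 10990 FPKM in control libraries against 1405, 4637 and 4312 FPKM in Eldr cKI. Without control replicate 3, the Eldr cKI values of mt-Nd2 lay on both sides of the remaining controls. Its log2 fold change, -0.65 with a standard error of 0.84, was the smallest among the members.

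The third of these pumping subunits, mt-Nd4, did not follow the other members. It was at 2636, 40.2 and 13775 FPKM in control libraries against 16.7, 25.6 and 4169 FPKM in Eldr cKI. Each group thus held libraries at 2636 FPKM or above and libraries at 40.2 FPKM or below. At the rough fragment numbers, the low values stand for 3.55 fragments in control replicate 2 and 2.38 and 2.44 in Eldr cKI replicates 1 and 2, and the high values for 609, 1606 and 1374 fragments. The log2 fold change of mt-Nd4 was -3.19, with a standard error of 3.56. The gene that precedes it on the same message, mt-Nd4l, was at 3295, 4901 and 8451 FPKM in control libraries against 456, 5973 and 4226 FPKM in Eldr cKI. In the 3 libraries where mt-Nd4 was low, mt-Nd4l stood for 93.4, 14.0 and 123 fragments, in the order given for mt-Nd4.

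Within a library, the ratio of mt-Nd4 to mt-Nd4l was 0.80, 0.00820 and 1.63 in control libraries against 0.0366, 0.00428 and 0.987 in Eldr cKI. These ratios fell in the same ranges in both groups, near 1 or far below it, and ranged 381-fold. Other pairs of neighbouring members ranged 4.58-fold (mt-Nd6 over mt-Nd5), 5.06-fold (mt-Nd3 over mt-Nd4l) and 5.49-fold (mt-Nd2 over mt-Nd1). Among the genes outside complex I, the overlapping pair mt-Atp6 and mt-Atp8 was also uneven, in another library. The ratio of mt-Atp6 to mt-Atp8 was 1.01e-05 in control replicate 1, where mt-Atp6 stood for far less than 1 fragment, 0.221 in Eldr cKI replicate 1 and 1.09 to 1.97 in the other 4 libraries. The cause of these ratios was not tested.

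**Figure D2:**
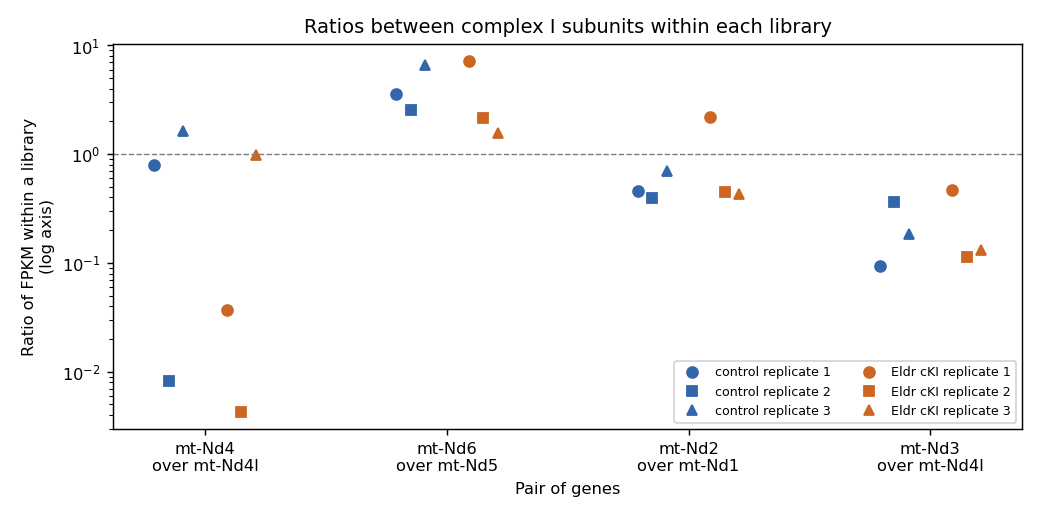
Ratio of FPKM between members within each library (log axis), in control (blue) and Eldr cKI (orange) libraries. The ratio of mt-Nd4 to mt-Nd4l lies between 0.80 and 1.63 in 3 libraries and between 0.00428 and 0.0366 in the other 3, whereas the other pairs range about 5-fold.

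The subunits next to the quinone site and at the joint of the membrane arm are mt-Nd1, mt-Nd3, mt-Nd4l and mt-Nd6. The level of mt-Nd1, which helps to form the quinone tunnel, was 5578, 9728 and 15568 FPKM in control libraries against 641, 10265 and 9943 FPKM in Eldr cKI. Eldr cKI replicates 2 and 3 both lay above control replicates 1 and 2. Its log2 fold change was -1.23 with a standard error of 1.39. For mt-Nd4l the log2 fold change was -1.19 with a standard error of 1.23, and Eldr cKI replicate 2 lay above control replicates 1 and 2. The lowest of this set in level was mt-Nd3, at 307, 1769 and 1552 FPKM in control libraries against 215, 680.1 and 554 FPKM in Eldr cKI. Its log2 fold change was -1.13 with a standard error of 0.96, and its values stand for only 7.73 to 46.1 rough fragments.

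The member with the highest mean level was mt-Nd6, which exceeded the others in every library but Eldr cKI replicate 3, where mt-Nd1 was higher, and which is read from the opposite strand. It was at 27852, 42904 and 155102 FPKM in control libraries against 8164, 28555 and 9491 FPKM in Eldr cKI. Only Eldr cKI replicate 2 reached the range of the controls, just above control replicate 1. Its group means were 75286 ± 69531 and 15404 ± 11409 FPKM (SD, n = 3 each), with a log2 fold change of -2.13 and a standard error of 0.94. Beside its neighbour mt-Nd5, mt-Nd6 was 3.55, 2.56 and 6.65 times as high in control libraries and 7.12, 2.14 and 1.56 times as high in Eldr cKI. The highest and the 2 lowest of these ratios were all in Eldr cKI libraries. As a share of all FPKM, the members together held 21.1%, 35.2% and 53.2% in control libraries against 6.38%, 26.6% and 16.2% in Eldr cKI, and the groups overlapped. With predicted names left out, they held 25.7%, 37.9% and 56.0% in control libraries against 19.5%, 29.6% and 17.6% in Eldr cKI. The groups overlapped there too, and Eldr cKI replicate 3 was the lowest in place of replicate 1.

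In the fit across 10772 genes, 2 of the 7 members, mt-Nd5 and mt-Nd6, were called lower in Eldr cKI (limma, Benjamini-Hochberg adjusted p under 0.05), against 0.0278% of all genes, or 3 genes. Since the members were brought forward by this same comparison, nothing is read from that count. The limma standard errors of these calls, 0.35 for mt-Nd5 and 0.24 for mt-Nd6, follow the trend of variance with level across genes and are smaller than those from the genes' own libraries given above. No member had every Eldr cKI library below every control, a pattern that 2.53% of all genes showed. A lower mean log level, which all 7 members had, was found in 51.1% of all genes. The median log2 fold change was -1.23 for the members, -0.72 for the 6 other mitochondrially encoded genes and -0.04 for all genes. In the authors' deposited table, no gene had a q-value under 0.05 and the smallest was 0.134.

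The calls and the direction for some members changed when libraries at the extremes were left out. Without control replicate 3 none of the members was called, and none was called without Eldr cKI replicate 1 (limma, as above). Without control replicate 2, mt-Nd4 and mt-Nd6 were called and mt-Nd5 was not. With control replicate 3 and Eldr cKI replicate 1 both left out, an alternative chosen after seeing the data, 3 of the 7 members had lower and 4 had higher log means in Eldr cKI, and the median log2 fold change was 0.015. The members that were still lower were mt-Nd6, at -1.07 with a standard error of 0.85, mt-Nd5, at -0.35 with 0.79, and mt-Nd3, at -0.26 with 1.27. Those with higher log means were mt-Nd1 at 0.46, mt-Nd2 at 0.51, mt-Nd4l at 0.32 and mt-Nd4 at 0.015, with standard errors of 0.40, 0.31, 0.38 and 4.72. With predicted names left out and the libraries rescaled, 6 of 7 members were lower and the median was -0.39, while that of all genes was 0.25. There mt-Nd6 was called and mt-Nd5 was not. With the libraries rescaled to the nuclear genes without predicted names, all 7 members were lower and the median was -0.93. Under that scaling mt-Nd5 and mt-Nd6 were both called. No member was called with a mean of at least 5 FPKM required, without the mean-variance trend or after quantile normalization.

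**Figure D3:**
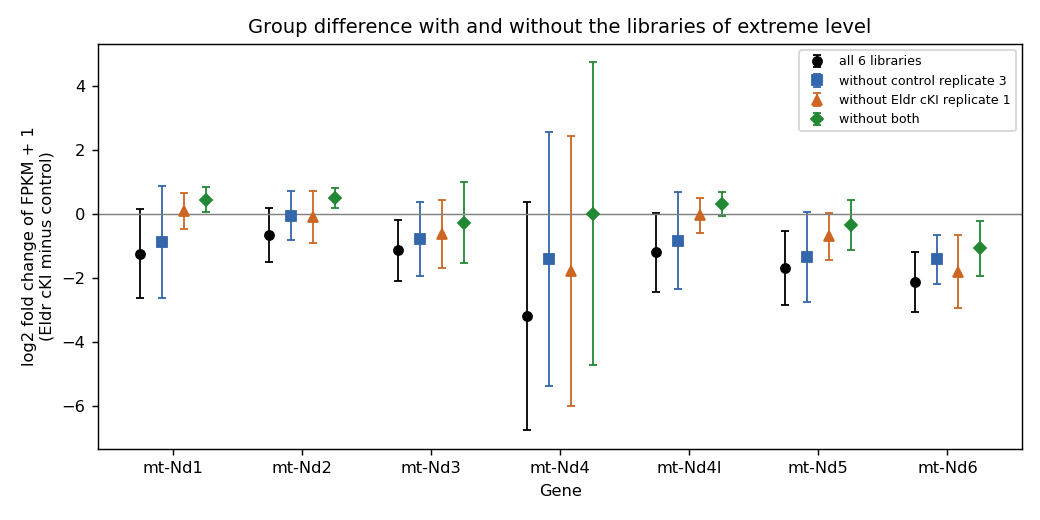
Difference in mean log2(FPKM + 1) between Eldr cKI and control for each member, with bars of 1 standard error from the gene's own libraries, for all 6 libraries (black), with control replicate 3 left out (blue), with Eldr cKI replicate 1 left out (orange) and with neither of them (green). With all libraries the values run from -0.65 for mt-Nd2 to -3.19 for mt-Nd4, and without both libraries mt-Nd1, mt-Nd2 and mt-Nd4l lie above 0 and mt-Nd6 at -1.07.

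Ordered by mean log level over the 6 libraries, per length, the members ran mt-Nd6, mt-Nd5, mt-Nd1, mt-Nd2, mt-Nd4l, mt-Nd3 and mt-Nd4. The gap between mt-Nd6 and mt-Nd5 was 1.75 ± 0.89 on the log2 scale (SD over 6 libraries), and mt-Nd6 was higher in 6 of 6 (two-sided exact sign-flip permutation test, p = 0.0312, adjusted over 6 neighbouring pairs 0.0938). The gap between mt-Nd4l and mt-Nd3 was 2.41 ± 0.95, with mt-Nd4l higher in 6 of 6 libraries (exact permutation, p = 0.0312, adjusted 0.0938). That p is the smallest that 6 libraries allow, and neither pair passed 0.05 after adjustment. The other neighbours were not separated beyond their spread: mt-Nd5 exceeded mt-Nd1 in 5 of 6 libraries, mt-Nd1 exceeded mt-Nd2 in 5, mt-Nd2 exceeded mt-Nd4l in 3 and mt-Nd3 exceeded mt-Nd4 in 3 (exact permutation, adjusted p from 0.188 to 0.719). When levels were multiplied by transcript length, which follows the number of fragments, mt-Nd5 came before mt-Nd6 and mt-Nd4 before mt-Nd3.

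The makeup of the mitochondrial RNA removes the overall level of a library from the comparison. The members together held 72.6%, 69.1% and 77.9% of mitochondrially encoded FPKM in control libraries against 74.9%, 60.5% and 52.0% in Eldr cKI. Eldr cKI replicate 1 lay within the control range, and Eldr cKI replicates 2 and 3 lay below it. The largest share in 5 of the 6 libraries was that of mt-Nd6, at 40.4%, 37.1% and 52.8% in control libraries against 50.8%, 27.2% and 12.7% in Eldr cKI. In Eldr cKI replicate 3, mt-Nd1 at 13.3% and mt-Co1 at 13.1% exceeded it. Without mt-Nd6 the remaining members held 32.2%, 32.0% and 25.1% in control libraries against 24.1%, 33.3% and 39.3% in Eldr cKI. The share of mt-Nd2 was 3.67%, 3.36% and 3.74% in control libraries against 8.74%, 4.42% and 5.78% in Eldr cKI, so its groups did not overlap. Outside complex I, mt-Co2 also had groups without overlap, with each Eldr cKI share above each control share. The groups of all the other mitochondrially encoded genes overlapped. With 3 against 3 libraries, even groups without overlap cannot take an exact permutation test below 0.1. As a share of the mitochondrial FPKM other than mt-Nd6, mt-Nd2 held 6.16%, 5.34% and 7.92% in control libraries against 17.8%, 6.08% and 6.63% in Eldr cKI, where the groups overlapped, whereas those of mt-Co1 and mt-Co2 on that scale did not. The share of mt-Nd5 was 11.4%, 14.5% and 7.94% in control libraries against 7.13%, 12.7% and 8.18% in Eldr cKI, again with overlap.

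**Figure D4:**
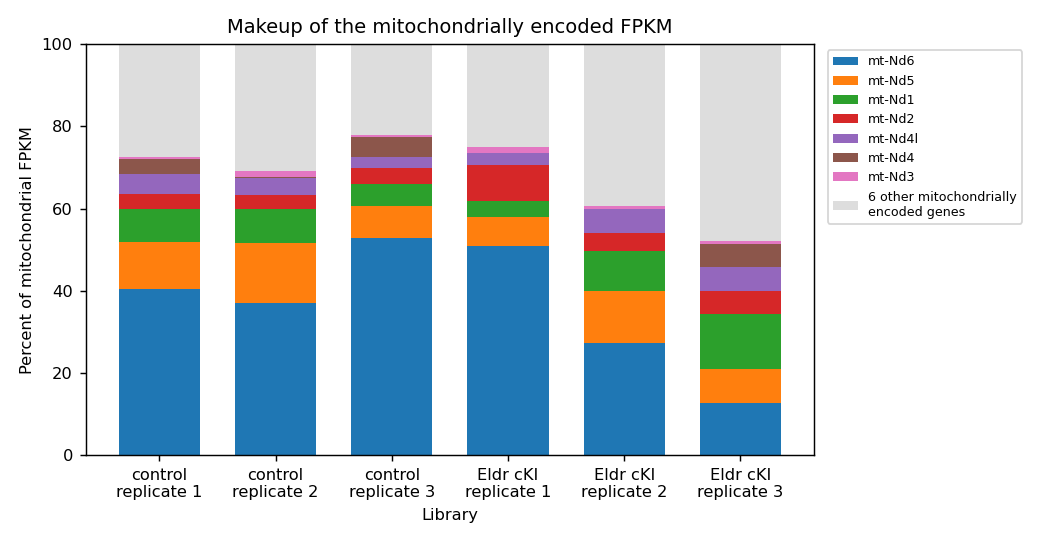
Share of the FPKM of the 13 mitochondrially encoded genes held by each member (colours) and by the 6 other genes (grey) in each library, in percent. The share of mt-Nd6 runs from 12.7% in Eldr cKI replicate 3 to 52.8% in control replicate 3, and is 50.8% in Eldr cKI replicate 1, whose overall mitochondrial level was the lowest.

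Across the 6 libraries, log levels of mt-Nd1 and mt-Nd4l ran closest together (Pearson r = 0.99), and mt-Nd5 was close to mt-Nd4l (r = 0.96). The lowest correlation of every other member was with mt-Nd4 (r from 0.19 to 0.57). The closest member to mt-Nd6 was mt-Nd5 (r = 0.84). These are descriptions over 6 libraries that share their scaling, their depth and the low level of Eldr cKI replicate 1. Among 275 nuclear genes above 0 in every library with a mean of at least 50 FPKM, those most like the summed 6 members other than mt-Nd6 were Srsf5 (r = 0.99), Uqcrb (0.97), Tra2a (0.94), Hnrnpc (0.94) and Hnrnph1 (0.93). Uqcrb encodes a subunit of complex III, and the others encode proteins that bind pre-mRNA. The level of Srsf5 was 189, 267 and 491 FPKM in control libraries against 22.5, 177 and 175 FPKM in Eldr cKI, lowest and highest in the same libraries as the members. Those most like mt-Nd6 were Hnrnph1, Cox7b, Tra2a, Ndufa4 and Apoe (r from 0.87 to 0.91). Despite its name, Ndufa4 is not on the list of nuclear complex I subunits used below. Apoe, an apolipoprotein made in quantity by liver, was at 813 FPKM in control replicate 3 and 12.4 to 139 FPKM elsewhere.

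The nuclear-encoded subunits of complex I were far lower in level and were not called. Of 37 genes on the list 36 had a row, and their FPKM summed to 1526, 1335 and 1212 in control libraries against 674, 1677 and 853 in Eldr cKI. The summed members exceeded this sum 32.8, 59.9 and 189 times in control libraries and 17.9, 37.8 and 45.5 times in Eldr cKI. The largest of the summed members was mt-Nd6 in every library but Eldr cKI replicate 3. In the fit, 0 of the 36 passed in either direction (limma, adjusted p under 0.05), and 5 had an unadjusted p under 0.05, as did 2.34% of all genes (252 of 10772). These 5, named after their values were seen, went both ways: Ndufa6, Ndufb3 and Ndufs8 were lower, and Ndufa1 and Ndufa9 were higher. The median log2 fold change of the 36 was -0.58, with 25 below 0 and 11 above, against -0.04 over all genes.

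Of the 7 core subunits, which hold the flavin and the iron-sulphur clusters or the quinone site, 4 had higher and 3 lower mean log levels. Ndufv1, the flavin-bearing subunit that binds NADH, was at 21.9, 85.97 and 12.7 FPKM in control libraries against 53.6, 109 and 36.5 FPKM in Eldr cKI, with overlap. Ndufs3 was at 32.2, 42.7 and 98.3 FPKM in control libraries against 2.19, 31.5 and 9.43 FPKM in Eldr cKI, where its groups did not overlap. Of the 29 accessory subunits measured, 22 had lower and 7 higher mean log levels. Ndufa6 was at 156, 130.4 and 219 FPKM in control libraries against 16.9, 113 and 0 FPKM in Eldr cKI. Ndufa5 was at 63.7, 212 and 26.5 FPKM in control libraries against 9.31, 109 and 110.3 FPKM in Eldr cKI. Ndufb9 was at 82.7, 15.0 and 71.8 FPKM in control libraries against 17.3, 157 and 122 FPKM in Eldr cKI. These 2 had groups that overlapped widely.

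Of the 36 nuclear subunits, 6 had every Eldr cKI library below every control, where the share over all genes was 2.53%. Besides Ndufs3 and Ndufa6 they were Ndufs8, Ndufa7, Ndufb4 and Ndufb5, named after their values were seen. Ndufv2, a core subunit with an iron-sulphur cluster, had every Eldr cKI library above every control, at 23.2, 42.2 and 12.4 against 5.96, 11.7 and 5.96 FPKM, a pattern shown by 1.25% of all genes. None of these 7 subunits passed the test. The shares over all genes are not a like background. A gene at 0 in any control library cannot have every Eldr cKI library below every control, and the converse holds for the other pattern. Per library, only 4420 to 8969 of the 11955 genes were above 0. Of the nuclear subunits, 5 to 7 of the 7 core and 21 to 29 of the 29 accessory genes were above 0 per library. In all 6 libraries, 13 of the 36 nuclear subunits were above 0.

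Genes that build the complex or make its mitochondrial messages were low in these libraries. Of 18 assembly factors 12 had a row, 0 were called and their median log2 fold change was -0.22, with 0 at an unadjusted p under 0.05. Ndufaf4 and Dmac2 had the highest means among them, with at most 24.2 FPKM in any library. Of 23 genes for mitochondrial transcription and RNA processing 17 had a row and 14 entered the fit, where 0 were called, 0 had an unadjusted p under 0.05 and the median was 0.79 (10 above 0 and 4 below). Grsf1, which binds mitochondrial RNA, was at 20.7, 0 and 0 FPKM in control libraries against 0, 4.77 and 35.2 FPKM in Eldr cKI. Hsd17b10, a part of the enzyme that cuts the 5′ ends of mitochondrial tRNAs, was at 13.7, 0 and 26.8 FPKM in control libraries against 0, 11.1 and 4.59 FPKM in Eldr cKI. A value of 0 means only that a gene was listed at 0.

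**Figure D5:**
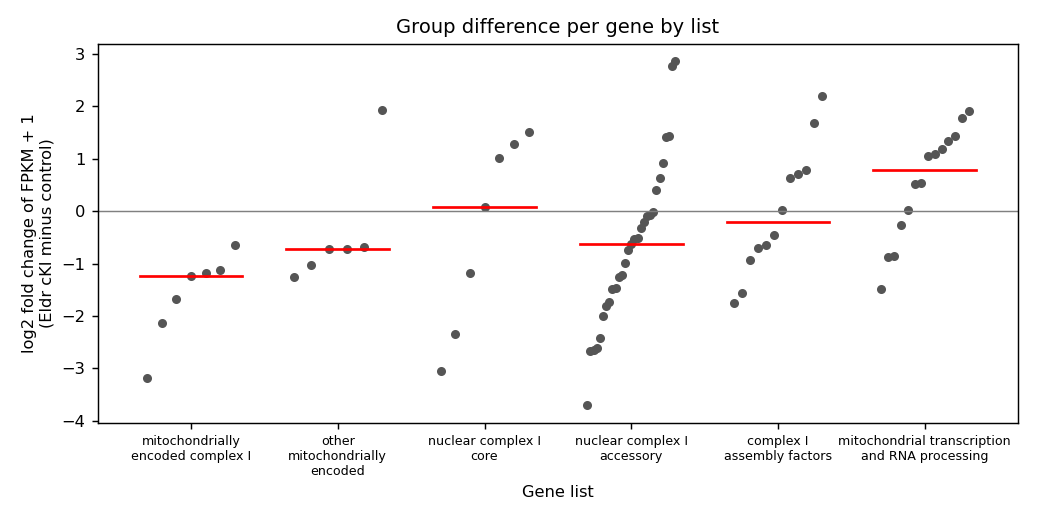
Log2 fold change of FPKM + 1 (Eldr cKI minus control) of every gene of each list that entered the fit (points, in order of size) with the median of the list (red bar). All 7 members lie below 0 with a median of -1.23, and the nuclear core subunits lie on both sides of 0 with a median of 0.07.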

How the data were processed

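RNA was sequenced from 3 control and 3 Eldr cKI samples, grouped by the genotype in the labels. Cutadapt, HISAT2 2.0.5 and StringTie are named, without parameters, in the submitters' processing notes. The notes name the build hg19, whereas identifiers and loci in the table are those of mouse, and 11017 of 11955 rows have the span and strand of GENCODE M21 on GRCm38. Per the labels' protocols, either poly(A) selection or ribosomal RNA removal preceded library preparation. The sources used here do not give which one each library had, nor how reads with several alignments were assigned.

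The deposited values of each library are FPKM, per the file headers. Group values deposited by the authors equal means of log2(FPKM + 1), and these differ by the log2 fold change they deposited. Taken out of the log2 scale, that difference gives the authors' deposited fold. The deposited p-value equals that of an equal-variance test on those log2 values, to within 4.56e-13.

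From the FPKM, limma 3.58.1 in R 4.3.3 was fitted to log2(FPKM + 1) with group as the only term and a mean-variance trend, over 10772 rows with a mean FPKM of at least 0.5. Calls required an adjusted p (Benjamini-Hochberg, over all rows) under 0.05, and low genes have their changes understated by the pseudocount of 1. Standard errors in the report are those of each gene's own residuals in that fit, except where limma's are named. The fit was tested on simulated data. Levels of members were compared by exact sign-flip permutation over the 6 libraries. With 3 against 3 libraries an exact permutation test cannot go below 0.1. Counts could not be recovered from the FPKM, so no count test was run, and depth is known only roughly. Other steps used Python 3.11.15 with numpy 2.4.6, pandas 2.3.3 and scipy 1.17.1, and plots matplotlib 3.10.9.

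The members, lists and tests were chosen with earlier results of these data known. By rule the text names all members, the 3 core and 3 accessory nuclear subunits with the highest mean FPKM, the 2 highest genes of the other lists, and the 5 genes most correlated with mt-Nd6 and with the 6 other members. A gene that this rule names is not reported here. P-values rest only on the spread between these samples, which may be technical. Those of limma also draw on the spread of other genes of like level, through the mean-variance trend. Alternatives changed the pseudocount, the filter, the trend, the scaling, the term for replicate and the libraries used.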

Additional observations from a re-analysis of the deposited data

How the results depend on the processing

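The number of members called, 2 of 7, was 4 with a pseudocount of 0.1, 1 with predicted names left out and libraries rescaled, and 0 with a mean FPKM of at least 5, without a mean-variance trend, with quantile normalization, and with control replicate 3 and Eldr cKI replicate 1 both left out. With libraries rescaled to the nuclear genes without predicted names, 2 members were called. Leaving out 1 replicate gave 0 to 3 members. The number of genes called over all rows, 3, was 8 with a pseudocount of 0.1 (2 higher and 6 lower), 1 with a mean FPKM of at least 5, 1 with quantile normalization, 0 without a trend and 0 without both libraries. Leaving out 1 replicate gave 0 to 12 genes, namely 12 when control replicate 1 was left out, 5 and 4 for Eldr cKI replicates 2 and 3, and 0 for control replicate 3 or Eldr cKI replicate 1. No nuclear complex I subunit was called under any of the 15 alternatives run (limma).

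The median log2 fold change of the members was -1.93 to -0.62 when 1 replicate was left out, and turned to 0.015 without both libraries, which was tried after seeing the data. There mt-Nd1 (0.46), mt-Nd2 (0.51), mt-Nd4 (0.015) and mt-Nd4l (0.32) changed sign. mt-Nd1 did so also without Eldr cKI replicate 1 (0.10), and mt-Nd2 with predicted names left out (0.19) and with quantile normalization (0.28). Their lowest values when 1 replicate was left out were -1.90 (mt-Nd1), -1.10 (mt-Nd2), -5.72 (mt-Nd4) and -1.89 (mt-Nd4l). Changing only the filter, the trend or the term for replicate cannot move a member's fold change. mt-Nd3, mt-Nd5 and mt-Nd6 stayed below 0 in all 15 alternatives. They ran from -0.26 to -1.93 for mt-Nd3, -0.35 to -2.46 for mt-Nd5 and -0.92 to -2.70 for mt-Nd6. The cause of these changes was not tested.

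With the replicate block, 5 genes and 3 members were called, mt-Nd1 besides mt-Nd5 and mt-Nd6. Deviations of same-numbered libraries correlated at -0.17, 0.03 and -0.15. The labels do not say whether same-numbered libraries are paired, and correlations over so few libraries cannot decide it. The tests of neighbours in the order of levels passed for 0 pairs under each setting, where leaving out a library allows no p under 0.0625, while mt-Nd2 and mt-Nd4l traded places without Eldr cKI replicate 1, and mt-Nd3 and mt-Nd4 without replicate 2 of either group. The count-based alternatives (edgeR, DESeq2) were not run, because low values were not whole multiples of the worth of a fragment. Small numbers of fragments limit the precision of mt-Nd3 and of the low values of mt-Nd4 most. The cause of those low values was not tested.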
